A study of Mus musculus with 16 samples.

Results

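Oxidative phosphorylation subunit genes were followed in the aorta of atherosclerosis-prone mice under diabetes and under an inhibitor of protein kinase C beta. The mitochondrial respiratory chain passes electrons from NADH (complex I) and succinate (complex II) through complex III to complex IV, which reduces oxygen, and the proton gradient that complexes I, III and IV build drives the ATP synthase, complex V. Most of the subunits are encoded in the nucleus, and some exist as tissue isoforms. Cells of brown fat and of muscle are rich in mitochondria, and whole aorta carries fat around the vessel, so RNA of these genes in an aorta comes from several cell types. The genes were taken by symbol: those beginning with Nduf (but not Ndufaf), Uqcr, Atp5 or Cox4 to Cox8, and Sdha, Sdhb, Sdhc, Sdhd and Cyc1, each read from probe sets annotated to 1 symbol. They came to 83 of 18194 genes named on the array, with 36 in complex I, 4 in complex II, 9 in complex III, 17 in complex IV and 17 in complex V. A filter on dim probe sets (mean log2 signal above the median of all probe sets, a linear signal of 383) left 80 members, out of 11037 genes tested, each read by its brightest probe set.

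RNA from whole aorta of 16 mice, each on its own Affymetrix array, was compared in 4 groups of 4: diabetic RBX, diabetic, non-diabetic RBX and non-diabetic. Every mouse, controls included, lacked apolipoprotein E (genotype ApoE-/-), which makes mice prone to atherosclerosis, ate a high fat diet for 10 weeks from 8 weeks of age, and was 18 weeks old. Diabetes was induced with STZ (streptozotocin), which kills the beta cells that make insulin, at 6 weeks of age. RBX is ruboxistaurin, an inhibitor of protein kinase C beta, given in the diet with the dose not stated in the labels. No group without the high fat diet and no mouse with apolipoprotein E was analysed here, so diabetes and RBX are read on this background only. Apoe itself read 282 ± 189 in diabetic RBX, 851 ± 207 in diabetic, 729.8 ± 66.4 in non-diabetic RBX and 546 ± 201 in non-diabetic mice (mean ± SD of the linear signal, n = 4 each), and whether its probe set (1432466_a_at) lies outside the deleted part of the gene was not examined, so it checks no label. It was lower in diabetic RBX than in non-diabetic RBX mice (log2 fold change -1.87, adjusted p = 0.0461), and its interaction of diabetes and RBX was -2.54 (adjusted p = 0.0418). Prkcb, which encodes the inhibited kinase, measured 2404 ± 423 in diabetic RBX, 2321 ± 282 in diabetic, 2610.1 ± 269 in non-diabetic RBX and 2007 ± 605 in non-diabetic mice (mean ± SD of the linear signal, n = 4 each), with an adjusted p from 0.382 to 0.967 in 4 comparisons and of 0.0988 for RBX in non-diabetic mice.

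Of the smooth muscle markers, Myh11, a smooth muscle myosin, averaged 80283 ± 3108 in diabetic RBX, 72060.3 ± 11870.2 in diabetic, 41071 ± 12362 in non-diabetic RBX and 83170.2 ± 6336 in non-diabetic mice. Acta2 of the same list went the other way, at 205054 ± 29859 in non-diabetic RBX and 165904 ± 19519 in non-diabetic mice. Des was far dimmer, at 1581 ± 892 and 2014.5 ± 631 in those 2 groups. Set against the other 12 arrays, the 4 of non-diabetic RBX mice stood apart in a technical measure, the cre signal. Their signal of the cre hybridisation control, a labelled RNA added before hybridisation, was 308744 to 575618, above the 156465 to 294506 of all other arrays. Actb's 3′ probe set over its 5′ one, on the log2 scale, is a usual measure of RNA quality. It averaged 1.71 in diabetic RBX (1.47 to 1.89), 1.34 in diabetic (1.16 to 1.52), 2.08 in non-diabetic RBX (1.67 to 2.51) and 1.04 in non-diabetic mice (0.847 to 1.32). By this ratio the RBX groups overlapped, and the non-diabetic RBX arrays lay above both groups without RBX. Marker counts are calls at an adjusted p under 0.05 in limma, the linear model described below. In non-diabetic RBX against non-diabetic mice 16.5% of all genes tested rose and 15.1% fell by that rule. Of the markers, 7 of 10 contractile smooth muscle ones fell and 1 rose, and 8 of 10 macrophage and 8 of 9 endothelial ones rose. So did 4 of 8 adventitial fibroblast markers, 3 of 7 brown adipocyte markers (members left out) and 3 of 5 white adipocyte markers. Of the cardiac muscle markers 6 of 10 did not pass the filter, Myh6 among them, and of the skeletal muscle markers 7 of 8. Of the 4 cardiac markers kept, 1 fell. Their mean log2 level differed by -0.45 here, -0.53 for diabetes without RBX, 0.67 for RBX in diabetic mice and 0.59 for diabetes with RBX. Exact permutation tests over mice gave p = 0.0571, 0.0286, 0.0286 and 0.0286 (adjusted p = 0.114 each). The part of these differences in the results below was not tested, except for the brown adipocyte markers, whose measured relation to the members is given. Fewer cells of a type and less RNA per cell cannot be told apart in bulk aorta.

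RBX in non-diabetic mice gave the broadest difference among the members. In non-diabetic RBX against non-diabetic mice, 27 of the 80 members rose and 1 fell in limma, a linear model fitted over all genes, with a Benjamini-Hochberg adjusted p under 0.05 over all genes. That is 35% of the members, against 31.7% of all genes tested in either direction, while 16.5% of all genes rose and 15.1% fell. The share of members that differed in either direction lay near that of all genes. Of the 80 members 65 lay above 0, and their median log2 fold change was 0.27, against 53.1% of all genes and a median of 0.032. The groups did not overlap for 17 members higher in RBX mice and 1 lower, against 14.3% and 13.2% of all genes. By complex, 7 of 35 members of complex I, 1 of 4 of complex II, 6 of 9 of complex III, 8 of 15 of complex IV and 5 of 17 of complex V rose, with median log2 fold changes of 0.20, 0.27, 0.43, 0.44 and 0.19. Without non-diabetic RBX mouse 3 the number of members called was 43, and without non-diabetic mouse 2 or non-diabetic RBX mouse 4 it was 17. With the log2 cre signal as a covariate 0 members and 0 of all genes passed, and the median over members was -0.036. Atp5d then had 0.60 (adjusted p = 0.141) and Cox8c 1.26 (adjusted p = 0.107). The cre signals of the 2 groups did not overlap, so this fit cannot tell cre and group apart. Nor did their Actb ratios, at 1.67 to 2.51 in non-diabetic RBX and 0.847 to 1.32 in non-diabetic mice. RNA quality by that ratio and group therefore cannot be told apart either, and no fit used it.

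**Figure D1:**
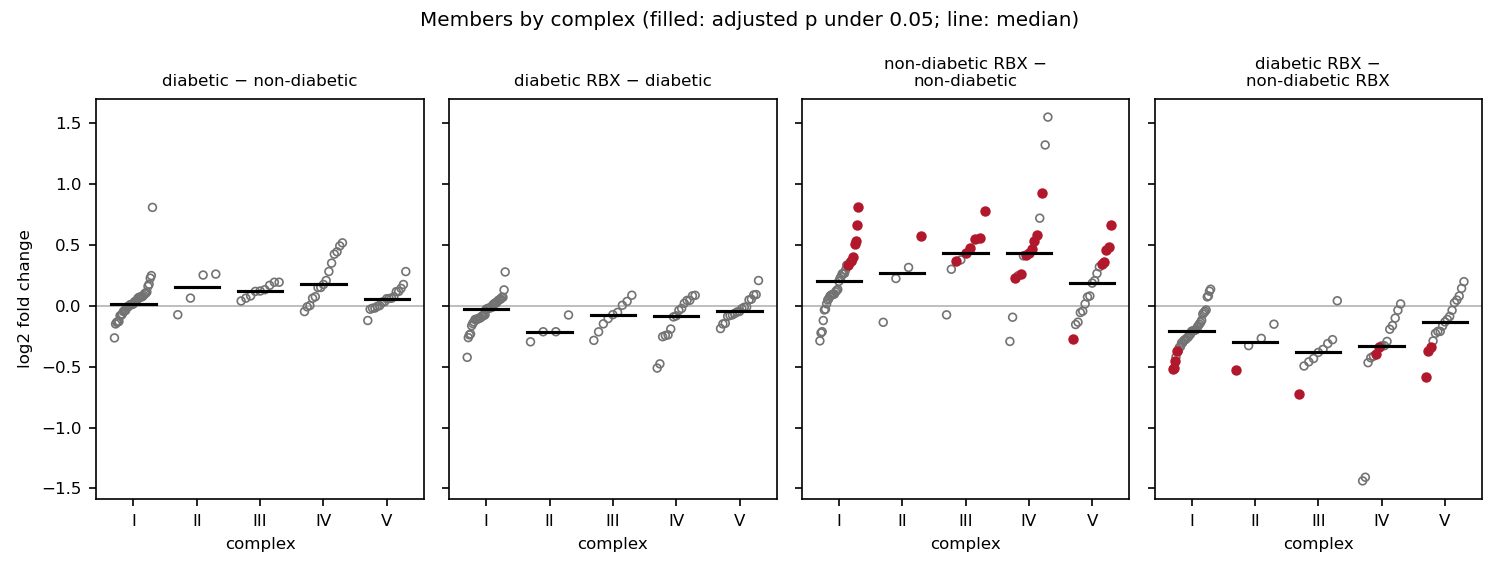
Each point is the log2 fold change of 1 of 80 members, sorted by size within complexes I to V, in 4 comparisons of 2 groups; filled points have an adjusted p under 0.05 and lines are medians. Filled points appear in 2 panels: non-diabetic RBX minus non-diabetic, where 27 lie above 0 and 1 below, and diabetic RBX minus non-diabetic RBX, where all 11 lie below 0.

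In complex I, Ndufv1 (probe set 1415966_a_at), the subunit that binds NADH and flavin, had a signal of 19323, 18283, 12574 and 21936 in non-diabetic RBX mice, against 9908, 9852, 11299.8 and 9403 in non-diabetic mice. The groups did not overlap, and RBX mouse 3 was the lowest of its group. It rose by 0.81 on the log2 scale (SE 0.14, limma adjusted p = 0.000418). Its other 2 kept probe sets had log2 fold changes of 0.66 (adjusted p = 0.00152) and 0.34 (adjusted p = 0.0616). Ndufa10, an accessory subunit of the membrane arm, read 12720.3, 12518, 10884 and 16895 in non-diabetic RBX mice, against 7828, 8344, 8239 and 8577 in non-diabetic mice. Every RBX aorta lay above every aorta without RBX, with mouse 4 highest (0.67, SE 0.12, adjusted p = 0.000448). Ndufv3, an accessory subunit of the NADH-binding module, rose likewise without overlap (32140.3 ± 3598 in non-diabetic RBX and 22176 ± 1303 in non-diabetic mice, mean ± SD, n = 4 each; log2 fold change 0.53, SE 0.10, adjusted p = 0.00062), as did Ndufb7, another accessory subunit (0.37, SE 0.091, adjusted p = 0.00523). Ndufs1, the large iron-sulfur subunit of the electron input arm, did not pass: it read 6112, 7032, 3612 and 5937 in non-diabetic RBX mice, against 5109, 4835, 5501 and 5322 in non-diabetic mice. RBX mice 1, 2 and 4 lay above all mice without RBX and mouse 3 below all of them, and the log2 fold change was 0.088 (95% interval -0.25 to 0.43). Ndufa4, counted here by its symbol although its protein is now placed in complex IV, had -0.29 (adjusted p = 0.257), and Ndufa4l2, its paralogue that hypoxia induces in other tissues, had 0.095 (95% interval -0.42 to 0.61).

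In complex II the iron-sulfur subunit Sdhb was the member that rose. It read 18874, 21626, 14739 and 22769.7 in non-diabetic RBX mice, against 12842, 12308, 14746 and 12028 in non-diabetic mice (0.57, SE 0.13, adjusted p = 0.00335). RBX mice 1, 2 and 4 lay above every aorta without RBX, and RBX mouse 3 fell just short of non-diabetic mouse 3. Sdha, which carries the flavin and oxidises succinate, had a log2 fold change of 0.32 (adjusted p = 0.0854), Sdhd, a membrane anchor, one of 0.22 (adjusted p = 0.271) and Sdhc, the other anchor, one of -0.14 (adjusted p = 0.362).

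In complex III the 6 members that rose included Uqcrc1, a core protein of the matrix side, and Cyc1, which encodes cytochrome c1. Uqcrc1 (probe set 1428782_a_at) read 11258, 13785, 8953 and 18125 in non-diabetic RBX mice, against 9230.4, 8133, 8886 and 7979.9 in non-diabetic mice. The groups overlapped by RBX mouse 3 alone, and mouse 4 read above all others (0.56, SE 0.17, adjusted p = 0.0181). The call was lost without mouse 4 of either group (adjusted p = 0.0508 and 0.0669). Cyc1 read 21767 ± 5478 in non-diabetic RBX and 14495 ± 791 in non-diabetic mice (mean ± SD, n = 4 each), with RBX mouse 3 again within the range of the group without RBX (0.55, SE 0.17, adjusted p = 0.0173); without RBX mouse 2 or 4 it did not pass (adjusted p = 0.0516 and 0.061). Uqcrfs1, the Rieske iron-sulfur protein, had 0.30 and did not pass (adjusted p = 0.178).

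In complex IV the ubiquitous isoform Cox4i1, a regulatory subunit, read 56960.2, 64602, 47772 and 79905 in non-diabetic RBX mice, against 41162, 40306, 45360.0 and 42338 in non-diabetic mice. The groups did not overlap, and the difference was 0.54 on the log2 scale (SE 0.12, adjusted p = 0.00243). Cox5b, a subunit of the matrix side, had 0.58 (adjusted p = 0.00273), and Cox5a, its neighbour in the complex, passed narrowly (0.46, SE 0.17, adjusted p = 0.0494), a call lost without any 1 of the non-diabetic mice or non-diabetic RBX mouse 2 or 4 (adjusted p = 0.0556 to 0.17). Cox8c, an isoform of the small membrane subunit VIII, read 2114, 1691, 2014 and 1654 in non-diabetic RBX mice, against 990.4, 1156, 958 and 832 in non-diabetic mice. Every RBX aorta was higher, mouse 3 included (0.93, SE 0.17, adjusted p = 0.000586).

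The isoform pairs of complex IV differed in size and spread. Cox7a1 and Cox8b encode the isoforms of heart, skeletal muscle and brown fat, and Cox7a2 and Cox8a those of most other tissues. Cox8b (probe set 1449218_at) read 3325, 6502, 5496 and 13769 in diabetic RBX, 16790.2, 14208, 9566 and 1390.2 in diabetic, 17238, 22194, 6386 and 36168 in non-diabetic RBX and 5768, 4843, 8644 and 4969 in non-diabetic mice. All 4 groups overlapped: non-diabetic RBX mouse 4 was highest, and diabetic mouse 4 lowest. Cox7a1 (1418709_at) read 1160.3, 2001, 1467 and 3986 in diabetic RBX, 5242, 4362, 3145 and 779 in diabetic, 5386, 5896, 1752 and 12118 in non-diabetic RBX and 1956, 1847, 2489 and 1923 in non-diabetic mice, with the same 2 mice at the ends. Their log2 fold changes for RBX in non-diabetic mice were the largest of the 80 members, 1.55 for Cox8b (SE 0.63) and 1.32 for Cox7a1 (SE 0.54). Neither passed, with adjusted p = 0.0673 and 0.072, and both passed without non-diabetic RBX mouse 3 (2.03, adjusted p = 0.0209, and 1.83, adjusted p = 0.0114) and when only the 2 groups compared were fitted (adjusted p = 0.0196 and 0.0444).

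Of the ubiquitous isoforms, Cox8a read 11179, 11258, 10786 and 11605 in non-diabetic RBX mice, against 8944, 9518, 10265 and 9476 in non-diabetic mice, with no overlap (0.23, SE 0.079, adjusted p = 0.0316). This call was lost without non-diabetic mouse 1, 2 or 4 or non-diabetic RBX mouse 2 or 4 (adjusted p = 0.0535 to 0.0953). Cox7a2 had a log2 fold change of 0.25 (adjusted p = 0.122), and Cox7a2l, whose protein helps to join complexes III and IV, rose by 0.26 (adjusted p = 0.018), a call lost without non-diabetic mouse 2 or non-diabetic RBX mouse 3 (adjusted p = 0.05004 and 0.0559). Cox6a1, the ubiquitous isoform of subunit VIa, rose by 0.44 (adjusted p = 0.0121), but had 0.093 after quantile normalization (adjusted p = 0.538) and did not pass as the mean over probe sets (adjusted p = 0.0532). Cox6a2, the heart and skeletal muscle isoform of VIa, was dim and scattered, at 735, 454, 585 and 295 in non-diabetic RBX mice, against 368, 425, 668 and 177 in non-diabetic mice (log2 fold change 0.41, 95% interval -0.40 to 1.22). Cox4i2, the lung isoform of subunit IV, did not pass the filter and was not tested, at 204, 576, 151 and 389.5 in non-diabetic RBX mice, against 209.8, 187, 127 and 69.7 in non-diabetic mice. Also below the filter were Cox7b2, at 5.4 to 179 over the 16 arrays, and Ndufb4, at 9.3 to 606.

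**Figure D2:**
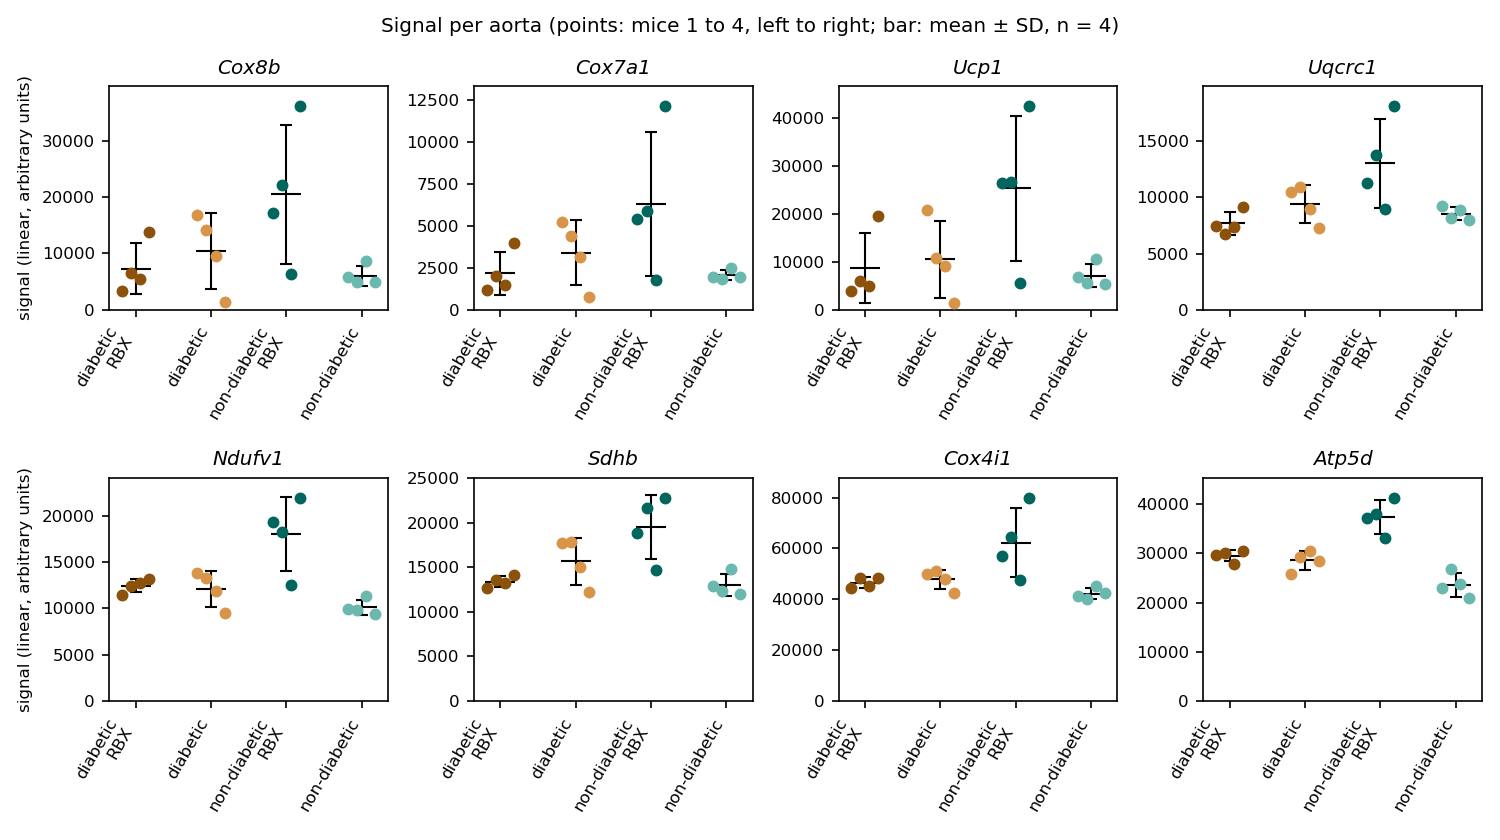
Linear signal of 7 members and of the brown adipocyte gene Ucp1 (y axis, from 0) in the 4 groups (x axis), with a point for each of 4 mice and the mean ± SD as bars. In Cox8b, Cox7a1 and Ucp1 the non-diabetic RBX points spread widely and mouse 3 lies far below the other 3 of its group, while in Atp5d and Ndufv1 all 4 lie above every non-diabetic point.

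In complex V, Atp5d (1456580_s_at), the delta subunit of the rotor stalk, had the smallest p of all members. It read 37126, 37911, 33004 and 41254 in non-diabetic RBX mice, against 22857, 26748, 23664 and 20850.1 in non-diabetic mice. The lowest RBX aorta lay well above the highest aorta without RBX, and the log2 fold change was 0.67 (SE 0.091, adjusted p = 4.57e-05). Its second kept probe set gave 0.53 (adjusted p = 0.000603). Atp5h, a part of the outer stalk, rose without overlap (0.49, SE 0.11, adjusted p = 0.00218), and so did Atp5o, which joins that stalk to the catalytic head (0.34, SE 0.10, adjusted p = 0.0159), a call lost without non-diabetic mouse 2 or 4 or non-diabetic RBX mouse 4 (adjusted p = 0.0533 to 0.0598). Atp5b, the catalytic beta subunit, rose by 0.46 (adjusted p = 0.0148, or 0.0533 without non-diabetic RBX mouse 4), while its partners Atp5a1 (alpha, 0.21, adjusted p = 0.14) and Atp5c1 (gamma, 0.19, adjusted p = 0.16) did not pass. Atp5j, the coupling factor of the outer stalk, was the member that fell: it read 15109, 18008, 18010.2 and 17047 in non-diabetic RBX mice, against 21388, 21326, 20383 and 19292 in non-diabetic mice, with no overlap (-0.28, SE 0.086, adjusted p = 0.0206). This call was lost without non-diabetic mouse 1 or 2 or non-diabetic RBX mouse 1 (adjusted p = 0.0571, 0.0565 and 0.0651).

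Promoter sequences from RefSeq (build GRCm38.p6, 250 bases before to 50 after each annotated start) were found for 67 members and searched on both strands for 5 motifs: NRF1 (nuclear respiratory factor 1) and YY1 by consensus motifs of 10 letters given here by name, ETS and GABP as CCGGAAGT, ERR (oestrogen-related receptors) as TNAAGGTCA, and the TATA box as TATAAAA. A gene was counted once for each motif that any of its promoters held, whatever other motif was there or overlapped it. The NRF1 letters were in 15 of 67 members (22.4%) against 5.19% of all 27025 genes with a promoter in the table, those of YY1 in 5.97% against 0.995%, of ETS and GABP in 7.46% against 4.31%, of ERR in 4.48% against 1.43%, and the TATA letters in 4.48% against 6.39%. A match is a description of letters and not a measured binding site. Below are 4 promoters: those of Cox7a1 and Cox8b, whose folds were the largest, and those of Uqcrc1 and Atp5o, which passed in 3 of the 5 comparisons and hold NRF1 letters. Atp5d, Ndufa10, Ndufv1, Ndufv3, Sdhb, Cox8a and Atp5b passed in the same 3 comparisons and held no NRF1 letters. Cox4i1 passed in them too, but no promoter was found for it. The windows are chr7:30183921-30184220 (plus strand) for Cox7a1, chr7:140900397-140900696 (minus strand) for Cox8b, chr9:108936398-108936697 (plus strand) for Uqcrc1 and chr16:91931581-91931880 (minus strand) for Atp5o. They are written 5′ to 3′, with matches in capitals:
Cox7a1: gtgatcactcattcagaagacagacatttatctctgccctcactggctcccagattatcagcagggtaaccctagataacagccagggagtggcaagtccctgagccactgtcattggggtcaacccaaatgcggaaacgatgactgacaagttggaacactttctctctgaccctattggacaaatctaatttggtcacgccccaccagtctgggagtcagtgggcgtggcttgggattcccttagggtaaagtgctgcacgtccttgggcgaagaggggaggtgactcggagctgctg
Cox8b: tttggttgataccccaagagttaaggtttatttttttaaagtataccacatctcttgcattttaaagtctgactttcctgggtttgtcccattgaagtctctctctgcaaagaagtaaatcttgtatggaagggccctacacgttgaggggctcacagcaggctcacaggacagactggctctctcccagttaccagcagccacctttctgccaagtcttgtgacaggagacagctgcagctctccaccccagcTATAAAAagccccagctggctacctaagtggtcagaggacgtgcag
Uqcrc1: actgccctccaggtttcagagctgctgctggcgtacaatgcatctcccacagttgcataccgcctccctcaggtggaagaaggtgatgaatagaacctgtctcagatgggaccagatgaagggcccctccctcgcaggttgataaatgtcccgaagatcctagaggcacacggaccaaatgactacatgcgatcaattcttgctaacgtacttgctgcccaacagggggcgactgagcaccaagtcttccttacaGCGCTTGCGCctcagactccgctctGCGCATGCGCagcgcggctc
Atp5o: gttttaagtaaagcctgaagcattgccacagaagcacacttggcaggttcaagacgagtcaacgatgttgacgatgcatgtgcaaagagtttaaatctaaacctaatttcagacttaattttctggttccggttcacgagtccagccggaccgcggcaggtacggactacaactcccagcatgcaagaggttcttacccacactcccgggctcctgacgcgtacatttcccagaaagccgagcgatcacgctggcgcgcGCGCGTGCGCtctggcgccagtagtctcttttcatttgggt
Cox7a1 held none of the 5 motifs and Cox8b a TATA box, while Uqcrc1 held 2 NRF1 matches and Atp5o held 1. In Cox8b, Uqcrc1 and Atp5o the matches lie within the 50 bases after the annotated start.

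Some brown adipocyte markers varied among the mice of a group in the order of Cox8b and Cox7a1, and others did not. Ucp1, the uncoupling protein of brown fat, read 3961, 6033, 4926 and 19553 in diabetic RBX, 20850.2, 10722, 9052 and 1301 in diabetic, 26405, 26762, 5644 and 42518 in non-diabetic RBX and 6737, 5569, 10529 and 5410.1 in non-diabetic mice. Non-diabetic RBX mouse 4 was highest, diabetic mouse 4 lowest and non-diabetic RBX mouse 3 the lowest of its group, as for Cox8b and Cox7a1. Dio2, the deiodinase that activates thyroid hormone, read 7642, 11237, 9937 and 8175 in diabetic RBX, 7467, 7808, 7693 and 6324 in diabetic, 7736, 7536, 8734 and 8084 in non-diabetic RBX and 5629.5, 4824, 5699 and 6275 in non-diabetic mice. Mouse 3 was the highest of the non-diabetic RBX group for Dio2. The summed signal of the 8 measured brown adipocyte markers that are no members was 17696 to 46174 in diabetic RBX, 11785 to 46497 in diabetic, 23790.4 to 91959.9 in non-diabetic RBX and 17238.5 to 28415 in non-diabetic mice. Their mean log2 level over the 7 that passed the filter was 1.14 higher in non-diabetic RBX than in non-diabetic mice (exact permutation p = 0.0571, adjusted over 32 tests p = 0.114) and 1.01 lower in diabetic RBX than in non-diabetic RBX mice (log2 difference -1.01, exact permutation p = 0.0571, adjusted p = 0.114). With 4 mice against 4 the smallest possible p is 0.0286. White adipocyte markers summed to 57944 to 110907 in diabetic RBX, 32382 to 93329 in diabetic, 50066 to 206670 in non-diabetic RBX and 44192 to 76250 in non-diabetic mice. Their mean log2 level was 13.46, 13.43, 11.67 and 13.74 in non-diabetic RBX mice 1 to 4, with mouse 4 the highest of all arrays. Diabetic mouse 4 was the lowest of all at 10.98, as for Ucp1. No slope on white adipocyte markers was fitted, so brown fat and fat in general cannot be told apart here.

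The slope of each gene on the brown adipocyte marker level within groups was fitted in limma over all 16 arrays, a test added after these values were seen. Of the 80 members 16 had a positive slope with an adjusted p under 0.05 (20%, against 1.49% of all genes) and 0 a negative one (against 0.245%). In all, 72 of 80 members had a slope above 0, with a median of 0.18, against 46.9% of all genes and a median of -0.010. The 2 steepest were Cox8b at 1.62 and Cox7a1 at 1.41 log2 units per log2 unit. Both had been listed as brown adipocyte markers and were left out of the level only because they are members. Their steep slopes are therefore no independent result about the members. Within the named members they were followed by Cyc1 at 0.38, Uqcrc1 at 0.35, Uqcrfs1 at 0.34, Cox5a at 0.32 (adjusted p = 0.0623, not called) and Ndufv1 at 0.31. The calls fell in complexes I to IV: 7 of 35, 2 of 4, 4 of 9 and 3 of 15, with 0 of 17 in complex V, where the median slope was 0.14. Without non-diabetic RBX mouse 3 and diabetic mouse 4, the arrays farthest from their group means, only Cox8b (1.24, adjusted p = 0.000133) and Cox7a1 (1.12, adjusted p = 0.00126) kept a call, and 29 genes of all those tested had a positive one. Marker and member values come from the same arrays.

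With the marker level as a covariate, 7 members passed for RBX in non-diabetic mice in place of 28, 6 higher and 1 lower, against 20.5% of all genes. The named members that still rose were Atp5d (0.62, adjusted p = 0.00126), Ndufv1 (0.45, adjusted p = 0.00704), Ndufa10 (0.43, adjusted p = 0.0131), Cox8c (0.85, adjusted p = 0.0104), Ndufv3 (0.39, adjusted p = 0.018) and Cox7a2l (0.29, adjusted p = 0.0443), and the 1 that was lower was Ndufb3, an accessory subunit of complex I (-0.42, adjusted p = 0.0328, named after its value was seen). The median over members was 0.058, near that of all genes at 0.035. Cox8b and Cox7a1 had -0.30 and -0.29, and as listed brown adipocyte markers they give no independent result here. The marker level itself averaged 1.14 log2 units higher in non-diabetic RBX than in non-diabetic mice, so this fit cannot fully tell level and group apart. It also rests on slopes within groups. Of these, 16 were called for members over all arrays, and 2 without the 2 arrays farthest from their group means.

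**Figure D3:**
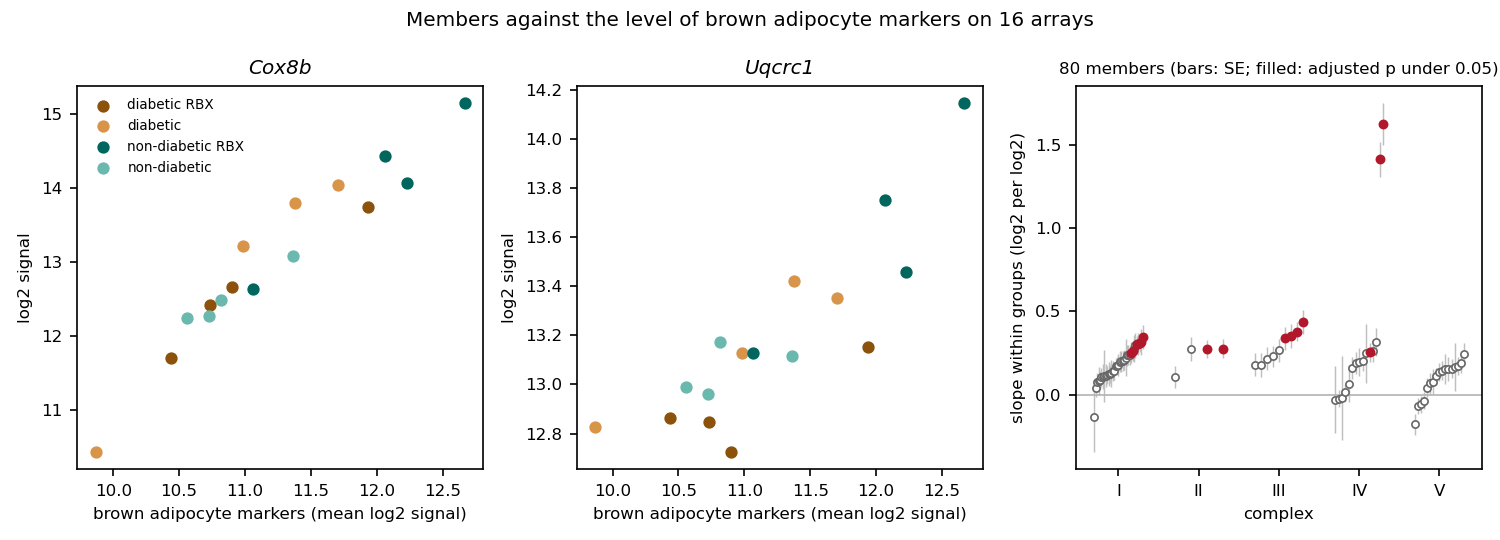
The left and middle plots set the log2 signal of Cox8b and Uqcrc1 (y axis) against the mean log2 signal of 7 brown adipocyte markers (x axis), a point per aorta coloured by group; the right plot gives each member's slope within groups by complex, with SE bars and filled points at an adjusted p under 0.05. Both genes climb with the markers, Cox8b far more steeply, and its slope of 1.62 and that of Cox7a1 at 1.41 stand above all other members. Cox8b and Cox7a1 had themselves been listed as brown adipocyte markers and were left out of the 7.

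Under RBX, diabetic aortas had lower levels of several members. In diabetic RBX against non-diabetic RBX mice, 11 of the 80 members fell and 0 rose (13.75%), against 7.1% of all genes in either direction, 2.66% lower and 4.44% higher. Of the members 69 lay below 0, with a median log2 fold change of -0.25, against 55.5% of all genes and a median of -0.041. The groups did not overlap for 9 members, all lower in diabetic RBX mice, against 6.26% of all genes. This comparison and that of RBX in non-diabetic mice share the 4 non-diabetic RBX arrays, so their values stand side by side and are no evidence for each other. In the same comparison 7 of 10 smooth muscle markers rose and 2 of 7 brown adipocyte markers fell. The mean Actb ratio and cre signal were lower in diabetic RBX mice as given above. Only cre and the brown adipocyte marker level were fitted as covariates. The part of the Actb ratio and of the smooth muscle markers in the result was not tested. In the fit of the 2 groups alone 1 member passed, and with the brown adipocyte marker level as a covariate 0 did. The mean of that level differed by -1.01 between these groups, so the marker fit cannot fully tell level and group apart. With cre as a covariate 0 members and 48 of all genes passed. The cre signals of these 2 groups did not overlap, so that fit cannot tell cre and group apart. The number of members was 35 without non-diabetic RBX mouse 3, 4 without non-diabetic RBX mouse 4, and 3 without diabetic RBX mouse 1 or 3.

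Atp5b, the catalytic beta subunit of the ATP synthase, had the smallest p of the 11. It read 28589.7, 31608, 34509 and 36429.6 in diabetic RBX mice, against 44918, 54429.9, 37717 and 62306 in non-diabetic RBX mice. Every diabetic aorta was lower, and the log2 fold change was -0.58 (SE 0.13, adjusted p = 0.0128), a call lost without diabetic RBX mouse 1 (adjusted p = 0.0541). Uqcrc1 of complex III had the largest fall of the 11, at -0.72 (SE 0.17, adjusted p = 0.0151). It read 7461, 6776, 7368 and 9104 in diabetic RBX mice, against 11258, 13785, 8953 and 18125 in non-diabetic RBX mice, and the groups overlapped by diabetic mouse 4 and non-diabetic mouse 3. In complex IV, Cox8a read 9742, 8168, 8969 and 8713 in diabetic RBX mice, against 11179, 11258, 10786 and 11605 in non-diabetic RBX mice, with no overlap (-0.34, SE 0.079, adjusted p = 0.0149), a call lost without diabetic RBX mouse 2 (adjusted p = 0.052). Cox4i1 also fell (-0.40, adjusted p = 0.0491). In complex I, Ndufa10 (-0.52, adjusted p = 0.0129), Ndufv3 (-0.37, adjusted p = 0.0279), Ndufv1 (-0.51, adjusted p = 0.0379) and Ndufs7, which holds the last iron-sulfur cluster before ubiquinone (-0.45, adjusted p = 0.0411), fell. Sdhb of complex II fell (-0.52, adjusted p = 0.0221), as did Atp5d (-0.34, adjusted p = 0.0308) and Atp5o (-0.37, adjusted p = 0.034) of complex V. Cox7a1 (-1.41, adjusted p = 0.123) and Cox8b (-1.44, adjusted p = 0.171) did not pass.

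These 11 calls were followed under other settings. Of 21 alternatives (each of the 8 arrays left out, and 13 other settings), the call was lost in 3 for Uqcrc1, in 4 each for Atp5b, Ndufa10 and Cox8a, in 6 for Sdhb, in 8 for Ndufv3, in 10 for Atp5o, in 11 each for Atp5d and Ndufv1, in 12 for Ndufs7 and in 14 for Cox4i1. The calls of Sdhb, Ndufv3, Atp5d, Atp5o, Ndufv1, Ndufs7 and Cox4i1 were lost without diabetic RBX mouse 1 or 3 and without non-diabetic RBX mouse 4. Those of Sdhb, Ndufv3, Atp5d, Ndufv1, Ndufs7 and Cox4i1 were also lost without non-diabetic RBX mouse 2, and those of Atp5d, Atp5o, Ndufv1, Ndufs7 and Cox4i1 without diabetic RBX mouse 2. Ndufa10 was lost without diabetic RBX mouse 3, Ndufv1 and Ndufs7 without non-diabetic RBX mouse 1, and Cox4i1 without diabetic RBX mouse 4. The adjusted p with an array left out ran from 0.0515 to 0.132 over the lost calls.

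The interaction asks whether RBX acted alike in diabetic and in non-diabetic mice, as the RBX effect in diabetic minus that in non-diabetic mice. It passed for 11 of the 80 members, all negative (13.75%), against 11.5% of all genes in either direction, 5.51% negative and 6.03% positive. The share of members that passed in either direction lay near that of all genes. The median over members was -0.32, with 70 of 80 below 0, against -0.059 and 55.0% of all genes. With cre as a covariate 0 members and 0 of all genes passed. The cre signal of non-diabetic RBX mice lay above that of all other arrays, so that fit cannot tell cre and group apart. For Atp5d the log2 fold change of RBX was 0.048 in diabetic and 0.67 in non-diabetic mice, a difference of -0.62 (SE 0.13, adjusted p = 0.00523). For Cox8a it was -0.25 in diabetic and 0.23 in non-diabetic mice, a difference of -0.49 (SE 0.11, adjusted p = 0.00995). Ndufa10 (-0.75, adjusted p = 0.00887), Sdhb (-0.79, adjusted p = 0.0125), Cox8c (-0.91, adjusted p = 0.022), Ndufv1 (-0.76, adjusted p = 0.0223) and Uqcrc1 (-0.84, adjusted p = 0.0304) also passed, and so did Ndufv3, Cox4i1, Atp5b and Atp5o (from -0.64 to -0.49). The number was 31 without non-diabetic RBX mouse 3, 20 without diabetic mouse 4 and 5 without diabetic mouse 3. Of 28 alternatives, the call was lost in 1 each for Atp5d, Cox8a, Ndufa10 and Sdhb, in 3 for Ndufv1, in 4 for Cox8c, in 10 for Uqcrc1, in 12 for Ndufv3, in 13 for Cox4i1 and in 14 each for Atp5b and Atp5o. Cox8c did not pass without non-diabetic mouse 4 or diabetic mouse 3 (adjusted p = 0.0502 and 0.0542). The calls of Uqcrc1, Ndufv3, Cox4i1, Atp5b and Atp5o were each lost for 7 to 10 of the 16 arrays left out, always without non-diabetic mouse 2, diabetic mouse 2 or 3, or diabetic RBX mouse 1 or 3, and for some also without non-diabetic mouse 1 or 4, diabetic mouse 1, diabetic RBX mouse 2 or non-diabetic RBX mouse 2 or 4 (adjusted p = 0.0508 to 0.0796). With the brown adipocyte marker level as a covariate it was 4, against 9.22% of all genes, namely Atp5d (-0.57, adjusted p = 0.0209), Cox8a (-0.47, adjusted p = 0.0268), Ndufa10 (-0.51, adjusted p = 0.0347) and Sdhb (-0.47, adjusted p = 0.0348). The cre, Actb ratio and marker differences of the non-diabetic RBX arrays given above enter this contrast too. Their part in it was not tested beyond the fits with cre or the brown adipocyte marker level as a covariate.

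For diabetes without RBX, 0 of the 80 members passed in limma, against 0.652% of all genes. At an unadjusted p under 0.05 were 5 members, against 15.2% of all genes, and 58 of 80 lay above 0 with a median of 0.063, against 52.4% of all genes and a median of 0.013. The 4 with the smallest p were higher in diabetic mice and did not pass. Atp5d read 25894, 29230.3, 30532 and 28488 in diabetic mice, against 22857, 26748, 23664 and 20850.1 in non-diabetic mice, overlapping by a pair of mice (0.28, 95% interval 0.090 to 0.47, adjusted p = 0.139). Cox8c read 1544, 1213, 1602 and 1190.2 in diabetic mice, against 990.4, 1156, 958 and 832 in non-diabetic mice, with no overlap (0.49, adjusted p = 0.17). Ndufb1, an accessory subunit of complex I, had 0.81 (adjusted p = 0.231), and Atp5g2, one of the genes for the rotor ring's subunit c, had 0.18 (adjusted p = 0.296). For Cox8b the interval ran from -0.97 to 1.67 and for Cox7a1 from -0.72 to 1.57, so an upward change of 1 log2 unit lay within both.

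For RBX in diabetic mice, 0 of the 80 members passed in limma, against 0.0453% of all genes, and 3 were at an unadjusted p under 0.05, against 9.2% of all genes. Of the members 55 lay below 0, with a median log2 fold change of -0.068, against -0.018 over all genes. Cox8a read 9742, 8168, 8969 and 8713 in diabetic RBX mice, against 10108, 10846, 11227 and 10214 in diabetic mice. The groups did not overlap, but the difference did not pass (-0.25, 95% interval -0.42 to -0.088, adjusted p = 0.309). Ndufa13, a complex I subunit also known as a cell death regulator, had 0.28 (adjusted p = 0.426), Ndufa3 -0.23 (adjusted p = 0.466) and Ndufa2 -0.26 (adjusted p = 0.556), the last 2 being accessory subunits of complex I. Cox8b had a log2 fold change of -0.24 with a 95% interval of -1.56 to 1.08.

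**Figure D4:**
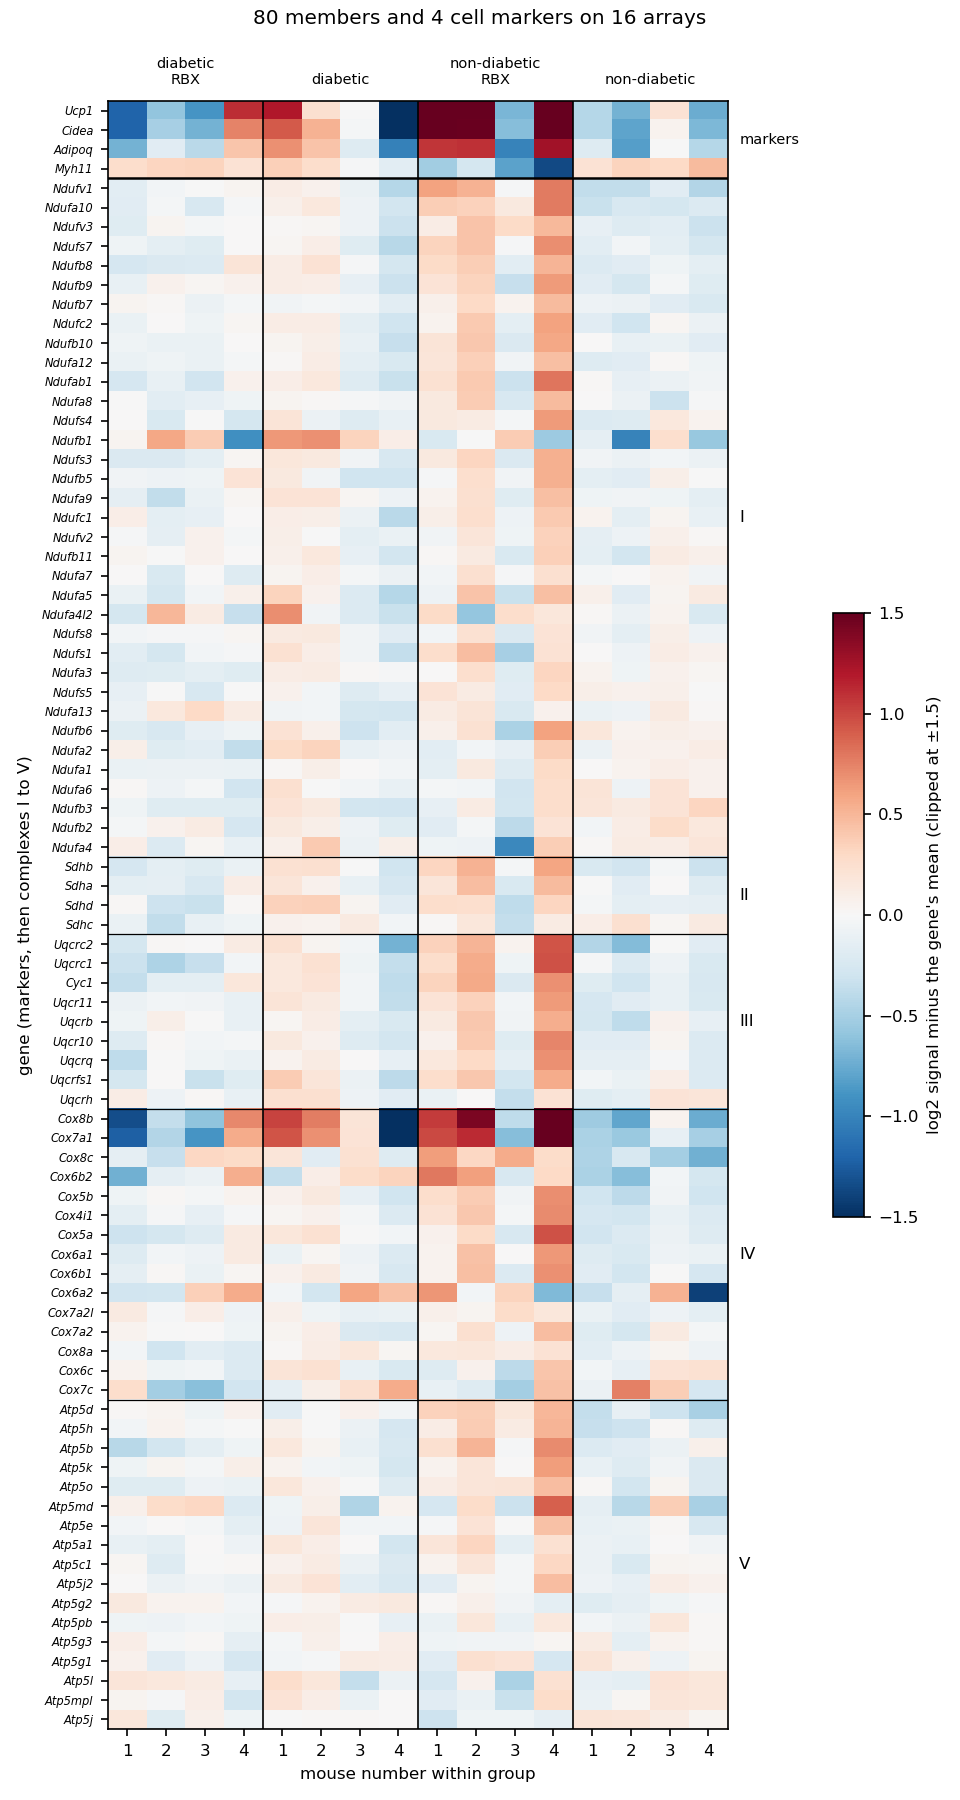
Log2 signal minus the gene's mean over 16 arrays, coloured from -1.5 to 1.5, for 4 cell markers (top) and the 80 members in complexes I to V (rows, sorted within a complex by the fold for RBX in non-diabetic mice), with mice 1 to 4 of each group as columns. Non-diabetic RBX mice 1, 2 and 4 are high for Ucp1, Cidea and many members, mouse 3 is low for Ucp1 and Cidea, and Myh11 is lowest in that group's mouse 4.

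Further probe sets of the same genes were read apart. Of the 80 members 42 had other kept probe sets, 66 in all, and these went the same way as the brightest one for 52 of 66 in RBX in non-diabetic mice, 59 in diabetes with RBX, 55 in the interaction, 42 in diabetes without RBX and 39 in RBX in diabetic mice. Ndufa7, Ndufb11 and Uqcrh had probe sets that opposed the one used at an unadjusted p under 0.05. For RBX in non-diabetic mice, another probe set of Ndufa7 had -0.42 (adjusted p = 0.00871) where the one used had 0.11, and one of Ndufb11 had -0.49 (adjusted p = 0.0143) where the one used had 0.13. For diabetes with RBX, Ndufa7 had 0.28 (adjusted p = 0.137) against -0.21, and Uqcrh, the hinge protein of complex III, had -0.29 (adjusted p = 0.195) against 0.041. In the interaction the same probe set of Ndufa7 had 0.36 (adjusted p = 0.155) against -0.22. The direction of these 3 genes is therefore not settled by the array.

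Other genes of the pathway were read from lists, whose counts stand beside 16.5% of all genes that rose and 15.1% that fell for RBX in non-diabetic mice. The citric acid cycle and pyruvate dehydrogenase, which supply NADH and succinate, had 16 genes tested: for RBX in non-diabetic mice 7 rose and 1 fell, with a median of 0.36. Idh3g, a subunit of isocitrate dehydrogenase, rose by 0.75 (adjusted p = 0.00114), and so did Idh3b of the same enzyme by 0.54 (adjusted p = 0.0137), whereas Suclg2 of succinyl-CoA ligase had -0.58 (adjusted p = 0.0063). Of 19 electron carriers and nucleotide exchangers 6 rose and 0 fell. Cycs, cytochrome c itself, read 58964, 67305, 38207 and 96424 in non-diabetic RBX mice, against 34228, 28823, 38771 and 34613 in non-diabetic mice (0.87, SE 0.21, adjusted p = 0.00421), with RBX mouse 3 the lowest of its group and within the range of the mice without RBX. Etfb, which feeds electrons from fatty acid oxidation into the chain, rose by 1.02 (adjusted p = 0.000687), and the uncoupling protein Ucp3 by 1.39 (adjusted p = 0.00442).

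Of the 44 assembly factors of complexes I to V tested, 3 rose and 3 fell for RBX in non-diabetic mice, with a median of 0.025. Ttc19, a complex III factor, had -0.70 (adjusted p = 0.000453), Cox16 of complex IV -0.72 (adjusted p = 0.000694), and Cox10, which makes haem for complex IV, 0.48 (adjusted p = 0.00969). Of 13 regulators of mitochondrial gene expression 1 rose and 1 fell: Ppargc1b, a coactivator of mitochondrial biogenesis, by 0.91 (adjusted p = 0.013), and Gabpa, a factor of respiratory gene promoters, with -0.57 (adjusted p = 0.00834). Yy1 had -0.26 (adjusted p = 0.0606) and did not pass. The 1 subunit encoded in mitochondrial DNA that could be named, ND5 of complex I, read 300298, 359267, 411343 and 393894 in non-diabetic RBX mice, against 130695, 90438, 237167 and 145796 in non-diabetic mice, and rose without overlap (1.35, SE 0.20, adjusted p = 9.8e-05). In RBX mouse 3, where Cox8b, Cox7a1 and Ucp1 were low, ND5 was the highest of its group. The cre signal was highest in mouse 3 of the non-diabetic group (249020), as for ND5. In the non-diabetic RBX group it was highest in mouse 4 (575618, against 461866 in mouse 3). Neither cre nor the Actb ratio overlapped between these groups. With cre as a covariate 0 of all genes passed, ND5 included, and that fit cannot tell cre and group apart. The part of the Actb ratio was not tested. For diabetes with RBX, where 4.44% of all genes rose and 2.66% fell, the lists gave 0 rises and 1 fall of 16 in the citric acid cycle, 0 and 2 of 19 carriers (Etfb -0.79 and Cycs -0.75), 1 and 1 of 44 assembly factors and 0 and 0 of 13 regulators.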

How the data were processed

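RNA (2 ug) from whole aorta of 16 ApoE-/- mice was measured on 16 Affymetrix arrays, 4 per group by title. The deposited values are linear intensity signals per probe set, which the authors made with MAS5 per the submitters' processing notes, with the version not given in the sources used here. In the deposited values the mean after trimming 2% at each end is 1500.01 on every array. Log2 of the deposited intensity was taken with no further scaling. Of 45101 probe sets, 34958 had 1 symbol in the platform annotation, 932 several, 9211 none, and 64 were controls.

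Probe sets with a mean log2 signal above the median of all (383 linear) were kept, 1 per gene (the brightest), giving 11037 genes. Groups were fitted together in limma 3.58.1 (R 4.3.3, data.table version 1.17.8) with an intensity trend, with 12 residual and 6.2 prior degrees of freedom, and p-values adjusted by Benjamini-Hochberg over all genes. The fit was tested on simulated data. The 5 comparisons were diabetes with and without RBX, RBX in diabetic and in non-diabetic mice, and their interaction. Marker lists were compared by exact two-sided permutation tests of the mean log2 level, over 70 assignments. The number of arrays limits the precision. Each array holds the RNA of 1 mouse, per the labels. No 2 arrays were identical.

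Members and lists were chosen with earlier results of these data known. Named are the members with an adjusted p under 0.05 (up to 10 per direction and comparison, or the 4 with the smallest p where none passed), isoform pairs and catalytic subunits, members with opposed probe sets, and up to 3 genes per pathway list. Cox4i1 for diabetes with RBX, Atp5o for RBX in non-diabetic mice and in the interaction, Ndufb3, Dio2 and Apoe were named outside that rule, after their values were seen. Alternatives tried were other scalings, filters, offsets, probe set rules, variance models, samples in the fit, a replicate block, cre as a covariate and each array left out; the brown adipocyte covariate, the slope fit and the TATA motif were chosen after seeing the data.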

Additional observations from a re-analysis of the deposited data

Results flagged for a closer look

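In 4 of 164 groups of 4 arrays, 1 array stood far from the other 3 (its gap to the nearest, over the group's range, was above Dixon's critical value), and chance gives about 1 in 20. Cox7a1 in non-diabetic mouse 3 had a gap share of 0.83, with a signal of 2489 against 1847 to 1956 in the other 3. Sdhc in diabetic RBX mouse 2 had 0.848 (5964 against 7149 to 7360.4). Sdhd in non-diabetic RBX mouse 3 had 0.886 (3848 against 5972 to 6245), the mouse that was also low for Cox8b, Cox7a1 and Ucp1. Sdhd in non-diabetic mouse 1 had 0.86 (4899 against 4519.9 to 4573).

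The effect of RBX differed between diabetic and non-diabetic mice, by limma's interaction term (diabetic minus non-diabetic, adjusted over all genes), for 11 of 80 members (13.75%, against 11.5% of all genes). That share lay near that of all genes. With cre as a covariate 0 members and 0 of all genes passed, in a fit that cannot tell cre and group apart. The calls of Uqcrc1, Ndufv3, Cox4i1, Atp5b and Atp5o were each lost for 7 to 10 of the 16 arrays left out. The differences in complexes I and II were -0.76 for Ndufv1 (adjusted p = 0.0223), -0.75 for Ndufa10 (adjusted p = 0.00887), -0.49 for Ndufv3 (adjusted p = 0.031) and -0.79 for Sdhb (adjusted p = 0.0125). In complexes III and IV they were -0.84 for Uqcrc1 (adjusted p = 0.0304), -0.91 for Cox8c (adjusted p = 0.022), -0.49 for Cox8a (adjusted p = 0.00995) and -0.57 for Cox4i1 (adjusted p = 0.0337). In complex V they were -0.62 for Atp5d (adjusted p = 0.00523), -0.64 for Atp5b (adjusted p = 0.0345) and -0.49 for Atp5o (adjusted p = 0.0352).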

How the results depend on the processing

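RBX in diabetic mice gave 0 members called under every alternative run, and diabetes without RBX gave 0 except 2 with array weights. Leaving out 1 array at a time gave 0 to 0 members for these 2 comparisons, 17 to 43 for RBX in non-diabetic mice, 3 to 35 for diabetes with RBX and 5 to 31 for the interaction. The highest counts came without non-diabetic RBX mouse 3. The lowest came without non-diabetic mouse 2 or non-diabetic RBX mouse 4, without diabetic RBX mouse 1 or 3, and without diabetic mouse 3. The count was also 4 without non-diabetic RBX mouse 4 and 5 without mouse 2 of either RBX group for diabetes with RBX, and for the interaction 20 without diabetic mouse 4 and 6 without non-diabetic mouse 2 or 4, diabetic mouse 2 or diabetic RBX mouse 1 or 3. RBX in non-diabetic mice gave 48 of 146 probe sets when all were tested apart, 7 members with the brown adipocyte covariate and 0 with cre. Diabetes with RBX gave 5 without the intensity trend, 1 with only the groups compared, 0 with the brown covariate and 0 with cre. The interaction gave 7 with no filter, 6 without the trend, 19 with array weights, 4 with the brown covariate and 0 with cre. The 16 positive slopes became 2 without the 2 arrays farthest from their group means, those of Cox8b and Cox7a1, which had been listed as brown adipocyte markers. The cause of these shifts was not tested. The cre signal of non-diabetic RBX mice lay above that of all other arrays. In comparisons that hold this group the cre fit therefore cannot tell cre and group apart. The mean brown adipocyte marker level was also highest in this group, so the brown covariate fit cannot fully tell level and group apart. The Actb ratio of this group lay above both groups without RBX, and no fit used that ratio.

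For RBX in non-diabetic mice, the cre covariate turned the sign of Cox6a1 (-0.019), Cox7a1 (-0.025), Cox7a2 (-0.26), Cox8b (-0.12), Ndufa4l2 (-0.15), Sdhc (0.0070), Uqcrfs1 (-0.023), Cox5a (-0.17), Atp5c1 (-0.11), Ndufa7 (-0.056), Atp5o (-0.033) and Ndufb11 (-0.32). The brown covariate turned that of Cox7a1 (-0.29), Cox8b (-0.30), Ndufa4l2 (-0.037), Ndufs1 (-0.25), Sdha (-0.0023), Sdhd (-0.089), Uqcrfs1 (-0.087) and Ndufb11 (-0.10), and for diabetes with RBX that of Cox7a1 (0.010) and Cox8b (0.19), and in the interaction that of Cox8b (0.034). The mean over probe sets turned Ndufa7 (-0.081) and Ndufb11 (-0.11) for RBX in non-diabetic mice, Uqcrh (-0.13) for diabetes with RBX and Ndufa7 (0.025) in the interaction. With arrays left out, Ndufs1 for RBX in non-diabetic mice ran between -0.030 (without non-diabetic RBX mouse 2) and 0.29 (without mouse 3), and Uqcrh for diabetes with RBX between -0.058 (without non-diabetic RBX mouse 3) and 0.13 (without mouse 4), and also turned without diabetic RBX mouse 1 (-0.0016). Over the single genes named, 766 values kept direction and call, 119 lost the call, 7 gained it and 27 turned; with arrays left out, the numbers were 568, 106, 11 and 3. Of all genes called for RBX in diabetic mice, 20% were higher, against 53.3% after quantile normalization and 0% after centring, on 5, 15 and 4 genes.

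Same-numbered arrays of different groups had correlated deviations above 0.1 in 2 of 24 pairs (-0.14 to 0.18), so the numbers were not taken as pairs. With the number as a replicate block 27 members were called for RBX in non-diabetic mice, 9 for diabetes with RBX, 11 for the interaction and 0 for each of the other 2 comparisons. Signal over background limited 3 members, which lay under the filter on dim probe sets.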
